A study of Mus musculus with 9 samples.

Results

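The cornified envelope genes of the epidermal differentiation complex were followed in RNA sequencing of mouse ear dermis. The members were every row of the count table whose symbol began with Sprr or Lce, together with Lor, Flg, Flg2, Ivl, Rptn, Hrnr, Crnn and Kprp. This gave 46 of the 52550 genes in the table. All 46 lay on chromosome 3, between positions 92080271 and 93399442 of GRCm38, a span of 1.32 Mb.

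There were 9 libraries in 3 groups of 3, all from C57BL/6 mice of 8 weeks whose genotype was labelled wild type (spelled "wide type"). VAS+H2O, the control, received vaseline for 5 days and ddH2O by gavage for 10 days. IMQ+H2O, the psoriasis-like model, received imiquimod cream for 5 days and the same gavage. IMQ+XYF received imiquimod cream for 5 days and 200 μl of Xiao-Yin-Fang (XYF) at 23.3 mg/g by gavage for 10 days, starting 5 days before the cream. XYF is a herbal decoction of Traditional Chinese Medicine, and no group received XYF with vaseline. Every group thus carried a gavage, and the effect of XYF on skin without imiquimod was not measured.

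The cornified envelope is the protein shell that replaces the plasma membrane of a keratinocyte in the last step of its differentiation. Loricrin, involucrin, the small proline-rich proteins (Sprr) and the late cornified envelope proteins (Lce) are its building blocks, and transglutaminases join them. Filaggrin and its relatives, the fused S100 proteins, bundle keratin filaments beneath that shell. Several Sprr and Lce3 genes are known to rise in wounded or psoriatic epidermis, while loricrin and filaggrin belong to undisturbed terminal differentiation.

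These are genes of the epidermis, whereas the labels give the tissue as dermis. The fibroblast gene Dcn stood at 4547 to 6282 CPM (counts per 1000000 counts of the library, whose total was scaled by TMM factors) over the 9 libraries, and the 7 fibroblast markers were all detected. Keratinocyte RNA was present in every library as well. Krt14, a keratin of basal keratinocytes, ranged from 724 to 3367 CPM and Krt10, a keratin of the layers above, from 514 to 6179 CPM. Fewer keratinocytes and less RNA per keratinocyte cannot be told apart in such bulk libraries. Library totals ran from 28756305 to 79836881 counts, and 3 counts corresponded to between 0.0373 and 0.103 CPM, a floor that covers counting error only.

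The sequences upstream of the genes that were called are shown first, since the data separate the Sprr2 genes into 2 patterns. RefSeq promoters (GRCm38.p6) were found for 41 of the 46 members. The 150 bases before the RefSeq start are printed from 5′ to 3′, shortened where GENCODE places the first exon earlier. Capitals mark the octamer ATTTGCAT, the AP-1 motif TGANTCA and the TATA motif TATAAA.
Sprr2b, chr3:92316555-92316619, plus strand: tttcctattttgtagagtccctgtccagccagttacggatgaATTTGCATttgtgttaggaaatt
Sprr2d, chr3:92338990-92339139, plus strand: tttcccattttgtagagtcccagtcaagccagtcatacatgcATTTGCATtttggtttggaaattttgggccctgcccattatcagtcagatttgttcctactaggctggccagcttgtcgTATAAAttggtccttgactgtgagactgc
Sprr2e, chr3:92351993-92352142, plus strand: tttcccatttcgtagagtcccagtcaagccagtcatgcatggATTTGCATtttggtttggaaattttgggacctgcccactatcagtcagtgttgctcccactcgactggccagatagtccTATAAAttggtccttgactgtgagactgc
Sprr2h, chr3:92385535-92385684, plus strand: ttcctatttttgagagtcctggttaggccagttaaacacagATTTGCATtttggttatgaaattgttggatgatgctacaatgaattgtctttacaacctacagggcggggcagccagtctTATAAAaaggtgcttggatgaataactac
Sprr1b, chr3:92438790-92438929, minus strand: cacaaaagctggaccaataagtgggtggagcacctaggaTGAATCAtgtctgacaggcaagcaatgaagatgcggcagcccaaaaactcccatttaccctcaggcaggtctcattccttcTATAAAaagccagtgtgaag
Lce3e, chr3:92966911-92967060, plus strand: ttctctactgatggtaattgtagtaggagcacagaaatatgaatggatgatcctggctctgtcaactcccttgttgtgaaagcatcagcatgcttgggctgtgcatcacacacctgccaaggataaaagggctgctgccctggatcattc
The sequence shown for Lce3e held none of these motifs, and no marked motif overlapped another. Motifs were counted over the full 150 bases on both strands. The octamer stood in 7 of the 7 promoters of Sprr2 genes outside the Sprr2a group and in none of the other 34 members with a promoter. Over all 32851 promoters of the same length, 0.998% held it. The 7 Sprr2 genes lie close together and are alike in sequence, so their promoters are not independent cases. Bases between the annotated start and the coding bases were not scanned. In Sprr2a1 the GENCODE gene starts at 92215799 and the coding bases at 92219092, against 92316620 and 92317449 in Sprr2b. An octamer nearer the coding bases of the Sprr2a genes would thus have been missed. The AP-1 motif stood in 8 of 41 members against 4.24% of all promoters, and TATAAA in 18 of 41 against 7.57%. The motif CACACCC was found in 2 of 41 against 4.54%. The octamer was chosen after the sequences were seen. A match is a description of letters and not of a bound factor.

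The Sprr2 proteins are small and their genes are alike, which bears on how reads were shared between them. The first 90 coding bases are printed from 5′ to 3′ (GENCODE vM21), with capitals at the positions that differ among the genes shown.
Sprr2a1, chr3:92219092-92219181, plus strand: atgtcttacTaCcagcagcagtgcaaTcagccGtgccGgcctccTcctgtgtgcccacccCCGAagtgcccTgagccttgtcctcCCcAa
Sprr2b, chr3:92317449-92317538, plus strand: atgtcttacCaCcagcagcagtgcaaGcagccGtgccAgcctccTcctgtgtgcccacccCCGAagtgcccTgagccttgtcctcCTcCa
Sprr2d, chr3:92340254-92340343, plus strand: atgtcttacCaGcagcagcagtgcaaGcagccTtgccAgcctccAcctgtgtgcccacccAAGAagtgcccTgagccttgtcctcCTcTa
Sprr2e, chr3:92352864-92352953, plus strand: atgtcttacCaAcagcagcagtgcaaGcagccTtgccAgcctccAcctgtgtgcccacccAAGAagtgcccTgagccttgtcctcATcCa
Sprr2h, chr3:92386632-92386721, plus strand: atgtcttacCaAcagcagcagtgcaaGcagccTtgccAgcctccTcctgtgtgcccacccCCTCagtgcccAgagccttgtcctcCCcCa
Sprr2a2 had the same 249 coding bases as Sprr2a1, an identity of 100%. Over aligned columns with gaps included, the identity of Sprr2a1 to Sprr2b, Sprr2d, Sprr2e and Sprr2h was 74.5%, 69.3%, 67.9% and 61.7%. Of all windows of 100 exonic bases, 92.5% in Sprr2a1, 92.8% in Sprr2a2 and 36.2% in Sprr2a3 also occurred in another gene. In Sprr2b, Sprr2d, Sprr2e and Sprr2h this share was 0.4%, 0%, 1.1% and 0%. It was 24.1% to 43.0% in Lce3c, Lce3d, Lce3e and Lce3f and at most 4.9% in the Lce1 genes. How the authors treated reads with several alignments is not given in the sources used here, so values of Sprr2a1, Sprr2a2 and of single Lce3 genes are uncertain. The ratio of Sprr2a1 to Sprr2a2 counts was 0.907 to 0.941 in all 9 libraries.

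Of the 46 members, 40 passed the filter on low counts and were tested. The other 6 were Sprr2c-ps with no count in any library, Sprr3 with a highest count of 5, Sprr2k with 23, Lce3a with 46, Lce3b with 107 and Sprr2j-ps with 173. All 5 of these highest counts were in IMQ+XYF 3. Fewer than 3 counts in at least 1 library were found for 18 members, and 28 members had 3 or more counts in every library. The number of members below 3 counts was 16 in VAS+H2O 3, 13 in VAS+H2O 1 and 8 in VAS+H2O 2. It was 6 or 7 in the IMQ+H2O libraries and 2 to 5 in the IMQ+XYF libraries. Of the 40 tested members, 5 (Sprr2b, Sprr2f, Lce3d, Lce3e and Lce3f) passed the filter only because of the IMQ+XYF group, where they were high. Counts of members are therefore given both for the 40 tested members and for the 35 that passed the filter without that group.

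Per kilobase of exon, the highest levels over the 9 libraries belonged to Sprr1a at 84.6 CPM per kilobase, Sprr1b at 50.2 and Lor at 27.4. Sprr2h followed at 14.5, and Sprr2a2, Lce1a1, Ivl, Sprr2a1, Lce1c and Sprr2d lay between 10.8 and 12.5. In VAS+H2O the order was different. Sprr1a stood at 59.7 CPM per kilobase there and Lor at 30.5, while Sprr1b stood at 4.80, Sprr2h at 1.01 and Sprr2d at 0.580.

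**Figure D1:**
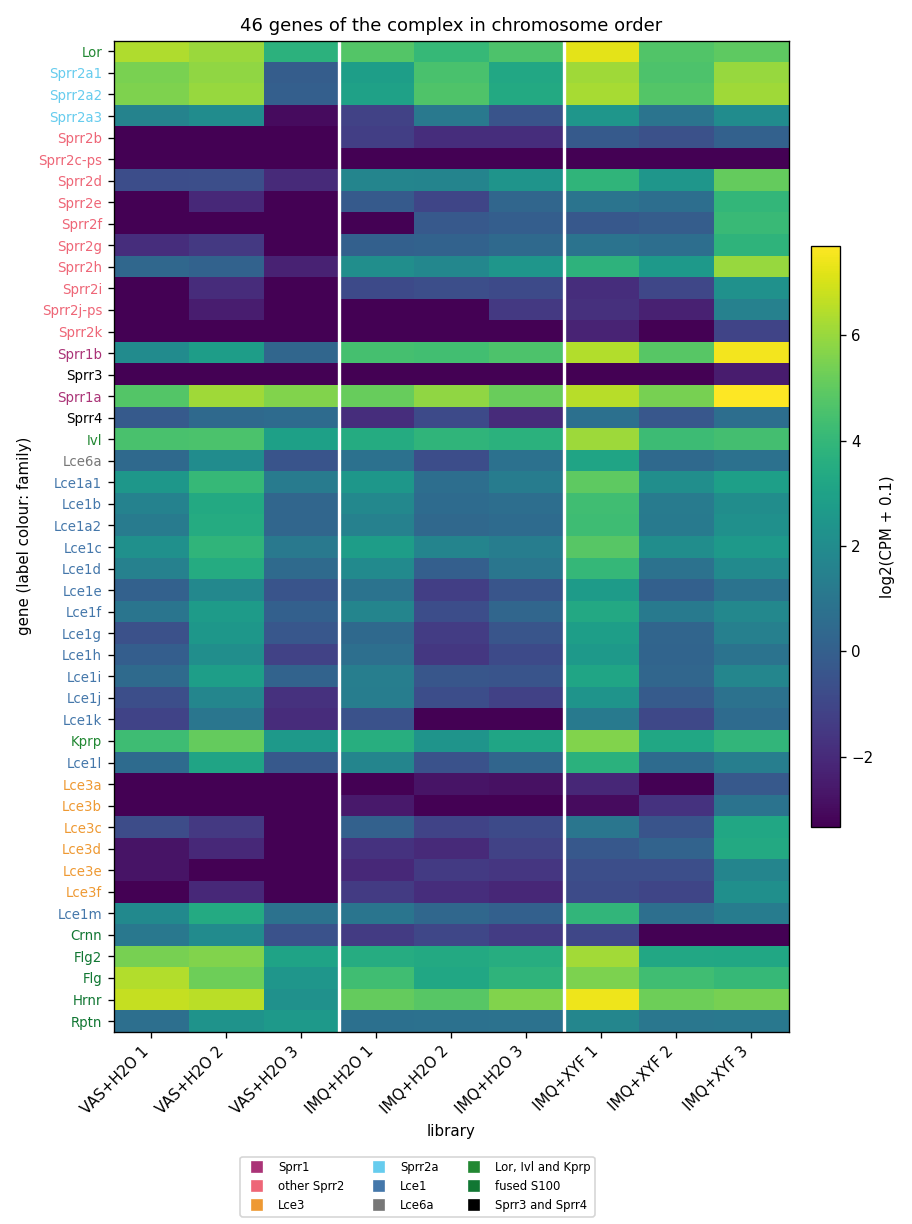
Level of each of the 46 members (vertical axis, in chromosome order, label colour by family) in each of the 9 libraries (horizontal axis), as log2(CPM + 0.1). The Sprr2 genes outside the Sprr2a group and the Lce3 genes are darkest in VAS+H2O and brightest in IMQ+XYF 3, whereas the Lce1 genes, Lor, Ivl and Kprp are brightest in IMQ+XYF 1.

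The members did not vary as a block. In 24 of the 45 members with any count the highest library was IMQ+XYF 1, and in 18 it was IMQ+XYF 3. All 14 Lce1 genes, the 3 Sprr2a genes, Lce6a, Lor, Ivl, Kprp, Sprr4 and 2 fused S100 genes were highest in IMQ+XYF 1. All 9 detected Sprr2 genes outside the Sprr2a group, the 6 Lce3 genes, Sprr1a, Sprr1b and Sprr3 were highest in IMQ+XYF 3. VAS+H2O 3 was the lowest library for 18 members.

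The first comparison, IMQ+H2O against VAS+H2O, asks what imiquimod did. Sprr1b lay higher after imiquimod without overlap of the groups. So did 6 of the 7 tested Sprr2 genes outside the Sprr2a group and 2 of the 4 tested Lce3 genes. Together they made up 22.5% of the 40 tested members, where 15.1% of all tested genes lay higher without overlap. Among them, Sprr2b and the 2 Lce3 genes, Lce3d and Lce3e, were tested only through their counts in IMQ+XYF. The Lce1 genes, Lor, Ivl and Kprp overlapped. In the quasi-likelihood test of edgeR, a gene was called at a Benjamini-Hochberg adjusted p of 0.05 or lower, over all 22430 tested genes, and an absolute log2 fold change of 1 or higher. Of the 40 tested members 1 was called, Sprr2b, which was higher, against 0.994% of all tested genes in either direction and 0.646% in that direction. At an unadjusted p under 0.05, 8 members were higher and 3 lower, where 20.9% of all tested genes passed, 10.1% higher and 10.8% lower. Sprr2b was tested only through its counts in IMQ+XYF, and with only the VAS+H2O and IMQ+H2O libraries in the fit it did not pass the filter, while Sprr2d was called there. In the fit of all libraries edgeR called 0 of the 35, with 5 higher and 3 lower at an unadjusted p under 0.05. DESeq2 called 5 of the 40 (Sprr1b, Sprr2b, Sprr2d and Lce3e higher, Sprr4 lower), where it called 3.9% of its tested genes. Of these 5, Sprr2b and Lce3e passed the edgeR filter only through IMQ+XYF. The groups did not overlap for 9 members that were higher in IMQ+H2O, or 22.5%, and for 2 that were lower, or 5%. Over all tested genes these shares were 15.1% and 16.5%, and of the 35 it was 6 higher, or 17.1%, and 2 lower.

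The second comparison, IMQ+XYF against IMQ+H2O, asks what XYF did under imiquimod. Nearly every member had a higher mean in IMQ+XYF, but the libraries of that group were far apart and no member was called by edgeR. Of all tested genes 0.00892% were called, 0.00446% higher and 0.00446% lower. At an unadjusted p under 0.05, 16 members were higher and 0 lower, where 6.35% of all tested genes were higher and 5.39% lower. Among the 35 members that passed the filter without IMQ+XYF, 12 were higher and 0 lower at that p. The Wald test of DESeq2 called 4 members, all higher (Sprr1b, Sprr2d, Sprr4 and Lce3d), where it called 1.1% of its tested genes. The groups did not overlap for 14 members that were higher in IMQ+XYF and 0 that were lower, against 9.22% and 8.74% of all tested genes. The 14 were Sprr1b, Sprr4, Ivl, 1 fused S100 gene, 2 Sprr2a genes, 5 other Sprr2 genes and 3 Lce3 genes. The 2 Sprr2a genes were Sprr2a1 and Sprr2a2, which most reads cannot separate, so they are not independent members. Of the 35 members that passed the filter without IMQ+XYF, 10 lay higher without overlap, or 28.6%.

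The third comparison, IMQ+XYF against VAS+H2O, sets the treated group against the control. It called 6 members, all higher, against 1.2% of all tested genes in either direction and 0.695% in that direction, with 0.508% lower. Of the 35 members that passed the filter without IMQ+XYF, 4 were called, or 11.4%. The 6 were Sprr1b, Sprr2b, Sprr2d, Sprr2e, Sprr2h and Lce3e. The groups did not overlap for 12 members that were higher and 1 that was lower, against 11.7% and 10.3% of all tested genes. The 12 were Sprr1b, the 7 tested Sprr2 genes outside the Sprr2a group and the 4 tested Lce3 genes, and 7 of them, or 20.0% of the 35, passed the filter without IMQ+XYF. At an unadjusted p under 0.05, 12 members were higher and 1 lower, where 9.58% and 8.76% of all tested genes were. Among the 35 members, 7 were higher and 1 lower at that p. The 3 comparisons share libraries, so their results are not independent of one another. All 6 calls were lost without VAS+H2O 2, without VAS+H2O 3 or without IMQ+XYF 1. There was 1 call without VAS+H2O 1 or without IMQ+XYF 3, 2 calls without any 1 of the IMQ+H2O libraries, and 9 calls without IMQ+XYF 2.

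Sprr1b encodes a small proline-rich precursor of the envelope that is low in resting skin. It stood at 3.93, 6.86 and 1.15 CPM in VAS+H2O, at 22.0, 20.3 and 24.5 in IMQ+H2O, and at 86.7, 28.2 and 182 in IMQ+XYF. The 3 groups did not overlap, and the 3 IMQ+H2O libraries lay close together while the IMQ+XYF libraries spread widely. The log2 fold change of IMQ+XYF against VAS+H2O was 4.66 ± 0.79 (SE, n = 3 per group, edgeR adjusted p = 0.0335). It was 3.87 without IMQ+XYF 3 and 5.32 without VAS+H2O 2. The log2 fold change by imiquimod was 2.51 ± 0.73 (edgeR adjusted p = 0.115), and that by XYF 2.15 ± 0.70 (edgeR adjusted p = 0.366).

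Sprr2d, a member of the Sprr2 subfamily, stood at 0.509, 0.528 and 0.147 CPM in VAS+H2O, at 3.10, 3.08 and 5.03 in IMQ+H2O, and at 14.8, 5.41 and 33.6 in IMQ+XYF. Each group lay wholly above the one before it. The log2 fold change was 5.57 ± 0.77 for IMQ+XYF against VAS+H2O (edgeR adjusted p = 0.0208), with 4.74 when IMQ+XYF 3 was left out. It was 3.31 ± 0.73 by imiquimod (edgeR adjusted p = 0.0654) and 2.26 ± 0.64 by XYF (edgeR adjusted p = 0.364). By imiquimod Sprr2d was called with only the VAS+H2O and IMQ+H2O libraries in the fit (edgeR adjusted p = 0.0254), without IMQ+XYF 2 or IMQ+XYF 3, and by DESeq2.

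Sprr2h, of the same subfamily, stood at 1.16, 1 and 0.107 CPM in VAS+H2O, at 4.20, 3.35 and 5.42 in IMQ+H2O, and at 13.9, 6.00 and 63.0 in IMQ+XYF. The groups did not overlap, and IMQ+XYF 3 stood apart from the other treated libraries. Its log2 fold change was 5.26 ± 1.06 for IMQ+XYF against VAS+H2O (edgeR adjusted p = 0.0475), 2.58 ± 0.98 by imiquimod (adjusted p = 0.185) and 2.67 ± 0.92 by XYF (adjusted p = 0.379). Without IMQ+XYF 3 the first of these was 3.76 (edgeR adjusted p = 0.106). Sprr2e had 0, 5 and 0 counts in VAS+H2O, or 0, 0.139 and 0 CPM. It stood at 0.758, 0.388 and 1.13 CPM in IMQ+H2O and at 1.80, 1.46 and 15.4 in IMQ+XYF, with a log2 fold change by XYF of 3.02 ± 1.06 that was not called (edgeR adjusted p = 0.379). Against VAS+H2O the log2 fold change of the IMQ+XYF group was 7.35 ± 1.46 (edgeR adjusted p = 0.0465). It was 5.39 without IMQ+XYF 3 (edgeR adjusted p = 0.102), and all 5 control counts were in VAS+H2O 2.

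Sprr2b had no count in any VAS+H2O library. It had 9, 7 and 9 counts in IMQ+H2O (0.310, 0.170 and 0.176 CPM) and 62, 28 and 59 in IMQ+XYF (0.772, 0.569 and 0.958 CPM). Against a floor of 3 counts over the control group, Sprr2b was at least 10.4-fold higher in IMQ+H2O (edgeR adjusted p = 0.0314) and at least 39.5-fold higher in IMQ+XYF (edgeR adjusted p = 0.0164). The call by imiquimod rested on 25 counts in all and was lost without any 1 of the VAS+H2O or IMQ+H2O libraries or without IMQ+XYF 3. Lce3e, a late cornified envelope gene of the Lce3 cluster, had 2, 0 and 0 counts in VAS+H2O, 4, 11 and 12 in IMQ+H2O and 43, 26 and 195 in IMQ+XYF. Its pooled ratio of IMQ+XYF to VAS+H2O was 105 (exact 95% interval 28.7 to 870, counting error only), with an edgeR adjusted p of 0.0411. Of its 264 counts in IMQ+XYF, 195 were in IMQ+XYF 3, and without that library the ratio was 40.4 (10.8 to 341). Both Sprr2b and Lce3e passed the filter only because they were high in IMQ+XYF, so their adjusted p values are not independent of that selection.

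**Figure D2:**
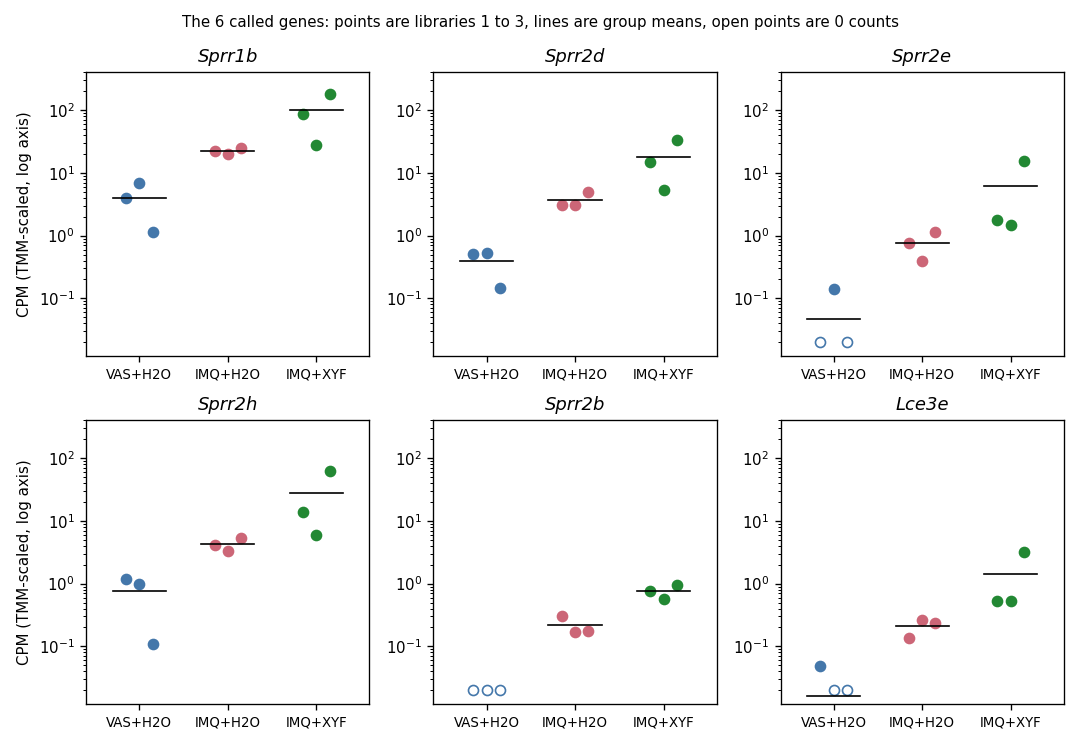
CPM on a log axis in VAS+H2O, IMQ+H2O and IMQ+XYF for the 6 called members, with 1 point per library, a line at each group mean and open points at the lower edge for libraries with no count. In every panel the IMQ+XYF points lie above all VAS+H2O points, and in the panel of Sprr1b they reach from 28.2 to 182 CPM.

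The other Sprr2 and Lce3 genes that were tested had values of the same kind without being called. Sprr2f had no count in VAS+H2O, and its pooled level was at least 316-fold higher in IMQ+XYF (edgeR adjusted p = 0.103), where it stood at 0.722, 0.854 and 17.7 CPM. Without IMQ+XYF 3 the bound was at least 39.1-fold. Sprr2g, Sprr2i, Lce3c, Lce3d and Lce3f had adjusted p values of 0.0601 to 0.134 in the same comparison, with each IMQ+XYF library above each VAS+H2O library. Lce3d, for example, stood at 0.0485, 0.139 and 0 CPM in VAS+H2O, at 0.207, 0.146 and 0.351 in IMQ+H2O and at 0.722, 1.04 and 10.1 in IMQ+XYF. Of these genes, Sprr2f, Lce3d and Lce3f passed the filter only because they were high in IMQ+XYF. When the Sprr2, Lce1 and Lce3 counts were each summed per family before the fit, no sum was called. The Sprr2 sum included the Sprr2a genes, whose mean in VAS+H2O was 74.4 CPM against 1.42 for the other Sprr2 genes. It therefore says little about those other genes. The Lce3 sum then had a log2 fold change of 5.13 ± 1.29 for IMQ+XYF against VAS+H2O (edgeR adjusted p = 0.0790).

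Sprr1a, the neighbour and relative of Sprr1b, did not share its separation of groups. It stood at 26.6, 69.1 and 48.6 CPM in VAS+H2O, at 34.9, 58.2 and 36.0 in IMQ+H2O and at 90.4, 42.9 and 207 in IMQ+XYF. The groups overlapped in every comparison, with a log2 fold change of -0.16 ± 0.54 by imiquimod (edgeR adjusted p = 0.890) and 1.40 ± 0.55 by XYF (edgeR adjusted p = 0.396).

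The Sprr2a genes followed a pattern unlike that of the rest of the Sprr2 genes. Sprr2a2 stood at 47.5, 64.0 and 0.911 CPM in VAS+H2O, at 7.82, 25.4 and 10.4 in IMQ+H2O and at 75.4, 26.7 and 70.3 in IMQ+XYF. Sprr2a1, which cannot be separated from it by most reads, stood at 44.1, 58.9 and 0.857, then at 7.16, 23.2 and 9.54, and then at 68.9, 24.2 and 63.7 CPM. The control libraries thus spanned both the lowest level and levels near the highest, and IMQ+XYF lay above IMQ+H2O without overlap. The log2 fold changes by imiquimod were -1.36 ± 1.08 and -1.37 ± 1.08 (edgeR adjusted p = 0.501 and 0.496), and those by XYF 1.98 ± 1.10 and 1.97 ± 1.09 (edgeR adjusted p = 0.499 for both).

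Loricrin, the most abundant protein of the mature envelope, was not called in any comparison. Lor stood at 84.1, 65.0 and 13.5 CPM in VAS+H2O, at 26.9, 16.7 and 24.7 in IMQ+H2O and at 151, 25.6 and 31.5 in IMQ+XYF. VAS+H2O 3 was the lowest of the 9 libraries and IMQ+XYF 1 the highest, so that the groups overlapped. The log2 fold change was -1.25 ± 0.78 by imiquimod (edgeR adjusted p = 0.389) and 1.61 ± 0.79 by XYF (edgeR adjusted p = 0.455). Without IMQ+XYF 1 the value by XYF was 0.33.

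Involucrin, an early scaffold of the envelope, behaved similarly but with a smaller spread. Ivl stood at 23.1, 24.1 and 7.62 CPM in VAS+H2O, at 10.9, 14.8 and 13.2 in IMQ+H2O and at 66.7, 18.8 and 21.3 in IMQ+XYF. Each IMQ+XYF library was above each IMQ+H2O library, with a log2 fold change of 1.46 ± 0.56 that was not called (edgeR adjusted p = 0.387) and was 0.63 without IMQ+XYF 1. By imiquimod the value was -0.49 ± 0.55 (edgeR adjusted p = 0.643). Kprp, the keratinocyte proline-rich protein, stood at 19.3, 33.7 and 5.94 CPM in VAS+H2O, at 11.8, 5.14 and 8.78 in IMQ+H2O and at 48.6, 9.48 and 15.1 in IMQ+XYF. Its groups overlapped in all 3 comparisons, with log2 fold changes of -1.19 ± 0.73 by imiquimod and 1.51 ± 0.73 by XYF (edgeR adjusted p = 0.377 and 0.452). The latter was 0.52 without IMQ+XYF 1.

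The 14 Lce1 genes, which build the envelope late in differentiation, shared their high libraries. Lce1a1 stood at 5.55, 16.4 and 2.32 CPM in VAS+H2O, at 5.65, 1.48 and 2.40 in IMQ+H2O and at 31.0, 4.23 and 7.36 in IMQ+XYF. Lce1c stood at 4.49, 14.9 and 2.06, then at 6.96, 3.01 and 2.48, and then at 28.0, 4.15 and 5.91 CPM. In both genes VAS+H2O 2 was far above the other controls and IMQ+XYF 1 far above the other treated libraries.

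Lce1b stood at 2.81, 10.3 and 1.15 CPM in VAS+H2O, at 3.44, 1.33 and 1.46 in IMQ+H2O and at 19.8, 2.30 and 4.14 in IMQ+XYF. Lce1a2 stood at 2.28, 10.9 and 1.14, then at 2.79, 1.21 and 1.35, and then at 19.0, 2.14 and 4.48 CPM. Lce1d stood at 2.77, 10.8 and 1.30, then at 3.75, 0.898 and 1.89, and then at 15.8, 1.67 and 3.72 CPM. These genes had the same high libraries as Lce1a1, and the groups overlapped for all 14 Lce1 genes in all 3 comparisons.

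None of the 14 Lce1 genes was called. By imiquimod their log2 fold changes were all negative, from -2.20 to -0.29, with a median of -1.25 where the median of all tested genes was -0.02. By XYF they were all positive, from 1.26 to 2.97, with a median of 1.95 where that of all tested genes was 0.01. Without IMQ+XYF 1 all 14 stayed positive by XYF, and their median fell to 0.73. The direction by imiquimod depended on 1 control library. Without VAS+H2O 2, 11 of the 14 Lce1 genes had a positive value and their median was 0.13. For IMQ+XYF against VAS+H2O all 14 were positive, and without IMQ+XYF 1, 13 of 14 were negative.

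The fused S100 genes encode filaggrin and its relatives. Hrnr (hornerin) stood at 106, 93.8 and 4.70 CPM in VAS+H2O, at 33.7, 28.5 and 48.0 in IMQ+H2O and at 169, 38.8 and 42.6 in IMQ+XYF. Flg (filaggrin), named here after its values were seen, stood at 84.9, 38.6 and 5.44, then at 20.0, 9.41 and 14.1, and then at 46.3, 19.9 and 16.6 CPM. In both genes 1 control library lay below every IMQ+H2O library while the other controls lay above all of them, and the groups overlapped. The log2 fold change by imiquimod was -0.89 ± 0.94 for Hrnr (edgeR adjusted p = 0.620) and -1.57 ± 0.81 for Flg (edgeR adjusted p = 0.303). By XYF it was 1.19 ± 0.94 and 0.93 ± 0.80 (edgeR adjusted p = 0.627 and 0.655), and without IMQ+XYF 1 it was 0.15 and 0.34.

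Sprr4, a small proline-rich gene outside the main subfamilies, and Crnn, a fused S100 gene, lay lower after imiquimod without overlap, and neither was called. Sprr4 stood at 0.776, 1.28 and 1.35 CPM in VAS+H2O, at 0.172, 0.461 and 0.156 in IMQ+H2O and at 1.57, 0.691 and 1.46 in IMQ+XYF. Its log2 fold change was -2.10 ± 0.52 by imiquimod (edgeR adjusted p = 0.0817) and 2.23 ± 0.52 by XYF (edgeR adjusted p = 0.360), and both were called by DESeq2 (adjusted p = 0.00650 and 0.0109). Crnn (cornulin) stood at 2.01, 3.92 and 0.590 CPM in VAS+H2O, at 0.276, 0.412 and 0.293 in IMQ+H2O and at 0.411, 0 and 0 in IMQ+XYF. Its log2 fold change was -2.71 ± 1.17 by imiquimod (edgeR adjusted p = 0.232), and it was the only tested member with a negative value by XYF, -1.12 ± 1.23 (edgeR adjusted p = 0.737). Crnn was not called against VAS+H2O in IMQ+XYF by edgeR (-3.83 ± 1.22, adjusted p = 0.141), and DESeq2 called it lower there (adjusted p = 0.0248). Both Sprr4 and Crnn were singled out after their values were seen.

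**Figure D3:**
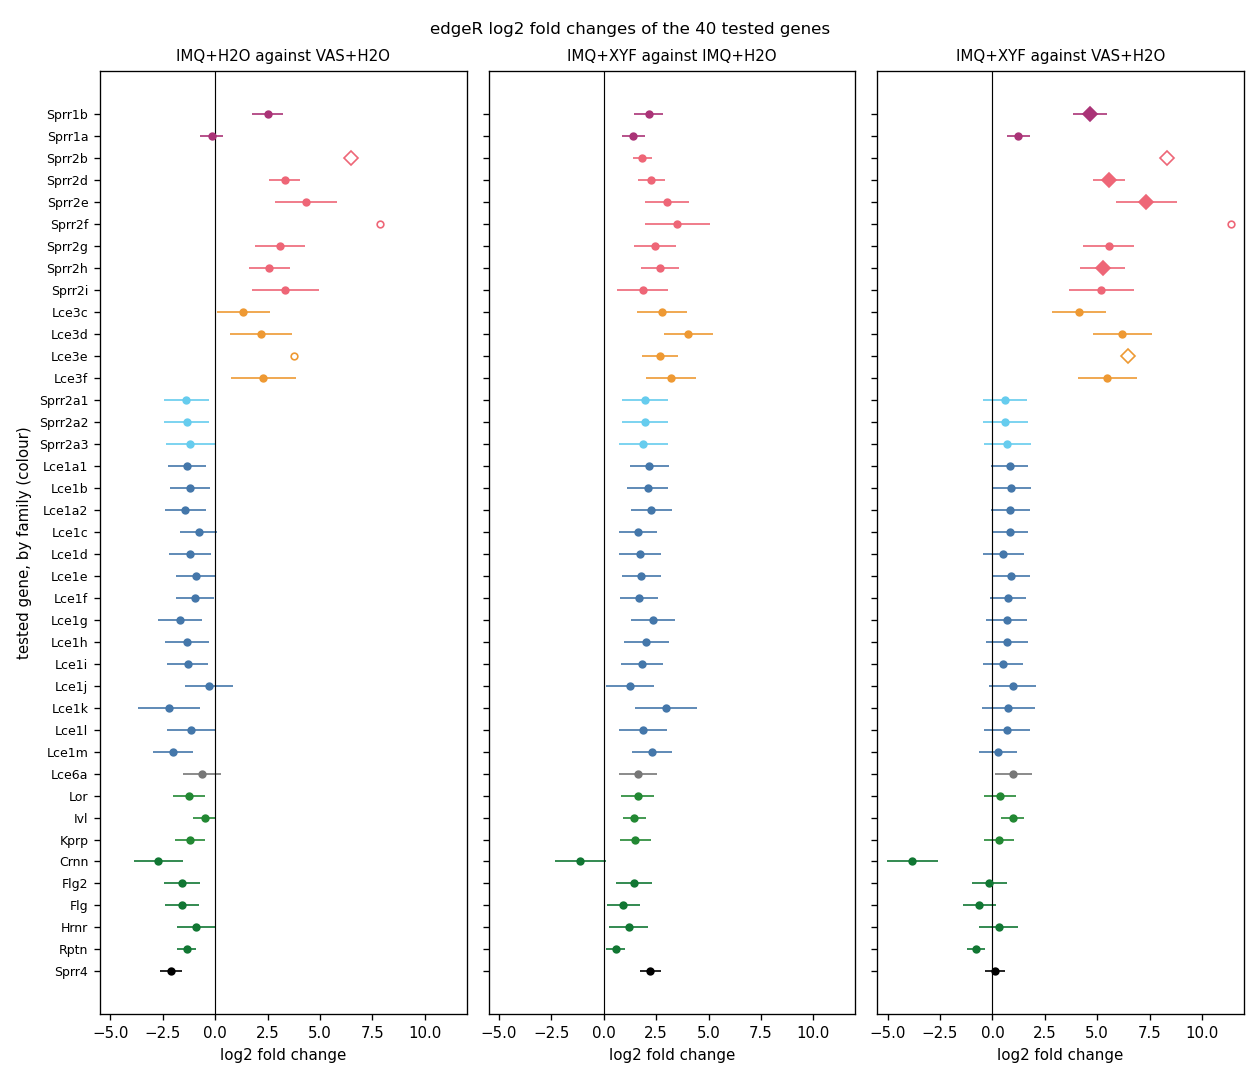
edgeR log2 fold change (horizontal axis) with its standard error (bars) of each of the 40 tested members (vertical axis, coloured by family) in the 3 comparisons. Diamonds are called, and open symbols, drawn without a bar, mark a control group with at most 3 counts in all, where the fitted value is no measure of size. In the middle panel 39 of 40 values are positive and none is called.

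Over the 40 tested members the median log2 fold change was -1.06 by imiquimod, 1.93 by XYF and 0.83 for IMQ+XYF against VAS+H2O. The medians of all tested genes were -0.02, 0.01 and -0.02. Positive values numbered 12, 39 and 36 of 40, where 47.7%, 50.7% and 47.3% of all tested genes were positive. Over the 35 members that passed the filter without IMQ+XYF the medians were -1.19, 1.85 and 0.74, and 7, 34 and 31 were positive. Without VAS+H2O 2, 25 of 40 were positive by imiquimod. Without IMQ+XYF 1, 18 of 40 were positive against the control and the median by XYF was 0.95. Without IMQ+XYF 3 the median by XYF fell from 2.44 to 1.10 for the Sprr2 genes outside the Sprr2a group and from 2.99 to 1.23 for the Lce3 genes.

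The keratins of the same libraries varied too, in part along with the members, and their part in these results was not tested. Krt5 and Krt14 together stood at 1606, 2847 and 1923 CPM in VAS+H2O, at 1225, 1821 and 1209 in IMQ+H2O and at 6213, 1795 and 3074 in IMQ+XYF. VAS+H2O 3, the lowest library for 18 members, lay above every IMQ+H2O library in these keratins. IMQ+XYF 1 was the library richest in basal keratins and also the highest for Lor, Ivl, Kprp and every Lce1 gene. Krt10 reached 6179 CPM in that library against at most 2473 in any other, and Krt1 1092 against at most 358.

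The members' sums were also divided by the level of Krt5 and Krt14, as a description. For the sum of Sprr1b, the Sprr2 genes outside the Sprr2a group and the Lce3 genes, grouped after their values were seen, the level per 1000 CPM of Krt5 and Krt14 was 0.732 to 3.96 CPM in VAS+H2O. It was 16.8 to 33.4 in IMQ+H2O and 20.1 to 118 in IMQ+XYF. These divided levels did not overlap between the control and either imiquimod group, and overlapped between IMQ+XYF and IMQ+H2O. Since the genes were grouped after their values were seen, the separation is a description. Undivided, the same sum was 1.41 to 9.56, 30.6 to 40.3 and 47.3 to 364 CPM, with no overlap.

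For the Lce1 sum the divided level was 7.48 to 40.3 in VAS+H2O, 6.72 to 33.3 in IMQ+H2O and 13.9 to 30.2 in IMQ+XYF. For the sum of Lor, Ivl and Kprp it was 14.1 to 78.8, 20.1 to 40.5 and 22.1 to 42.9. For the fused S100 sum it was 13.03 to 148, 27.6 to 62.7 and 23.0 to 46.8. All 3 groups overlapped in each of these families, and the control libraries had the widest range. The sum of all 46 members was 427 ± 272 CPM in VAS+H2O, 239.6 ± 3.06 in IMQ+H2O and 770.2 ± 427 in IMQ+XYF (mean ± SD, n = 3), a description with no test.

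**Figure D4:**
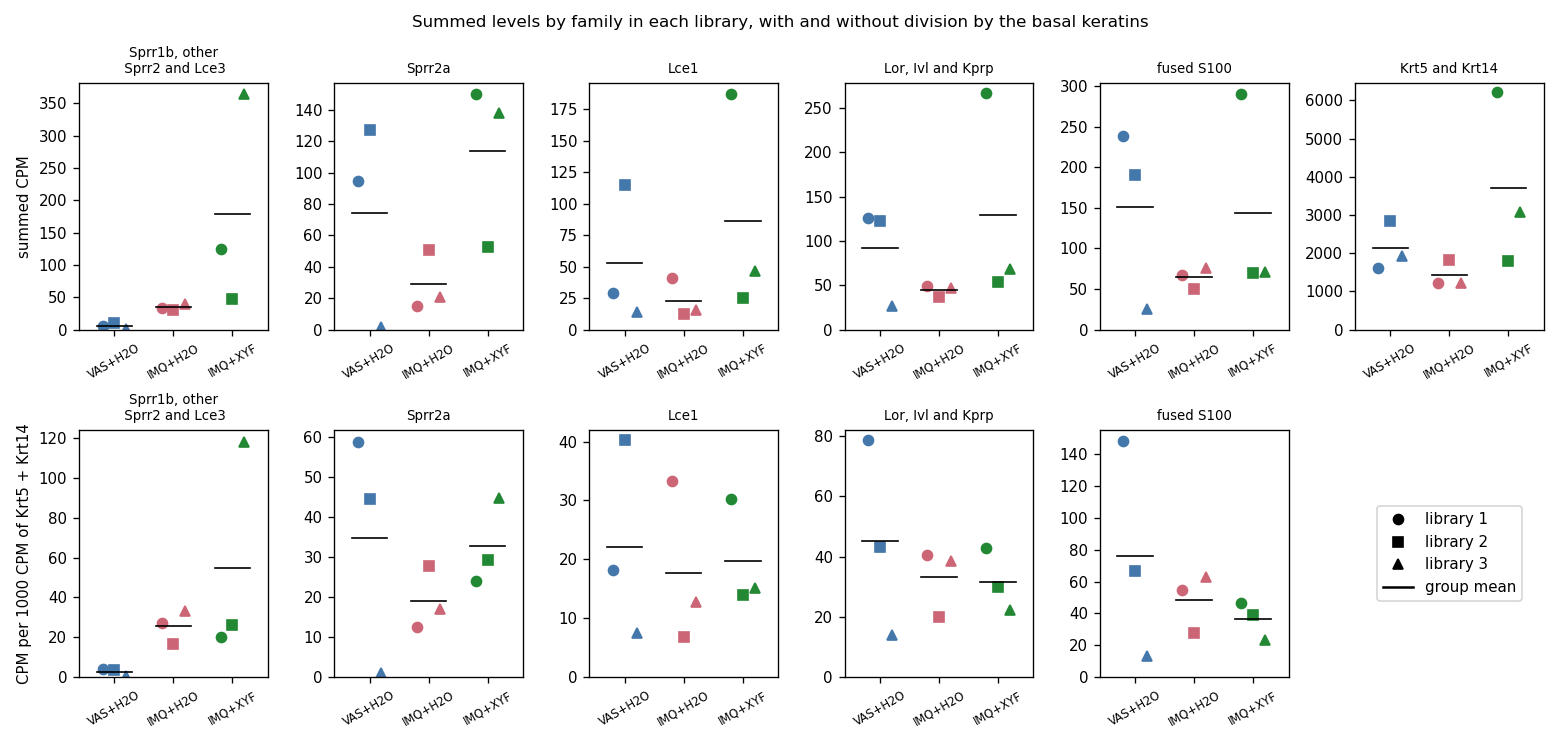
Summed CPM of gene families in each library (upper row) and the same sums per 1000 CPM of Krt5 and Krt14 (lower row), by group, with a symbol per library number and a line at the group mean. Divided by the basal keratins, the sum of Sprr1b, the Sprr2 genes outside the Sprr2a group and the Lce3 genes lies above the control in both imiquimod groups, and the Lce1 sum overlaps among all 3 groups.

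The stress keratins Krt6a, Krt6b, Krt16 and Krt17, which keratinocytes make in wounds and psoriatic plaques, were highest as a sum in IMQ+XYF 3, like the Sprr2 genes outside the Sprr2a group and the Lce3 genes. Krt16 stood at 17.4, 31.3 and 7.15 CPM in VAS+H2O, at 84.7, 129 and 107 in IMQ+H2O and at 464, 132 and 742 in IMQ+XYF. Of the 4, Krt6b and Krt16 were called for IMQ+XYF against VAS+H2O, both higher (edgeR adjusted p = 0.0418 and 0.0286). By imiquimod and by XYF, 3 of the 4 were higher at an unadjusted p under 0.05 without passing the adjusted threshold. Their summed level was 226 to 380 CPM in VAS+H2O, 482 to 800.1 in IMQ+H2O and 580 to 2900 in IMQ+XYF.

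Neutrophils are among the immune cells that enter skin under imiquimod. The 7 genes listed as their markers summed to 7.69 to 26.2 CPM in VAS+H2O, 212 to 661 in IMQ+H2O and 174 to 481 in IMQ+XYF. Bulk libraries do not tell which cells made these transcripts, including those of S100a8 and S100a9. The imiquimod groups overlapped with each other and lay above the control, and S100a8, S100a9, Csf3r and Stfa2l1 were called higher in both against VAS+H2O by edgeR.

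Genes that finish the envelope were taken as a list of 40, including the transglutaminases that link its proteins, the proteases and lipid enzymes of cornification and the desmosomal plaque proteins. By imiquimod 1 of the 40 was called, Padi3, which was lower, and 37 of 40 had a negative log2 fold change (median -0.66). Of all tested genes 0.348% were called lower and 47.7% had a positive value, with a median of -0.02. Padi3 encodes a peptidylarginine deiminase of the hair follicle and granular layer. It stood at 2.04, 3.61 and 6.14 CPM in VAS+H2O, at 0, 0.194 and 0.156 in IMQ+H2O and at 0.112, 0 and 0.130 in IMQ+XYF. Its log2 fold change was -4.94 ± 0.89 by imiquimod (edgeR adjusted p = 0.0408) and -5.49 ± 0.90 for IMQ+XYF against VAS+H2O (edgeR adjusted p = 0.0309), where it was again the 1 called gene. The call by imiquimod was lost without any 1 of the VAS+H2O or IMQ+H2O libraries or without IMQ+XYF 3. The call against the control was lost without VAS+H2O 2 or 3, IMQ+H2O 2 or 3, or IMQ+XYF 1 or 3.

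By XYF none of the 40 was called by edgeR, while 37 were positive (median 1.18), 27 were higher and 0 lower at an unadjusted p under 0.05, and DESeq2 called 8. Of all tested genes 50.7% were positive (median 0.01), 6.35% were higher and 5.39% lower at that p, and DESeq2 called 1.1%. The 3 with the smallest p were Tgm3, Padi1 and Cers3. Tgm3, a transglutaminase that crosslinks small proline-rich proteins, stood at 9.65, 16.5 and 7.42 CPM in VAS+H2O, at 4.65, 4.61 and 7.12 in IMQ+H2O and at 51.1, 13.3 and 112 in IMQ+XYF. Its log2 fold change by XYF was 3.42 ± 0.69 (edgeR adjusted p = 0.358). Tgm3 was highest in IMQ+XYF 3, the library in which the Lce3 genes and the Sprr2 genes outside the Sprr2a group were highest too. The list of 40 as a sum was instead highest in IMQ+XYF 1, at 11061 CPM against 4971 in IMQ+XYF 3.

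Of 19 regulators of epidermal differentiation none was called in any comparison by edgeR. At an unadjusted p under 0.05, 3 were lower by imiquimod, 3 higher by XYF, and 1 higher and 2 lower in IMQ+XYF against VAS+H2O. Over all tested genes 10.8% were lower by imiquimod, 6.35% higher by XYF, and 9.58% higher and 8.76% lower in the last comparison. DESeq2 called 0, 1 and 0 of the 19, where it called 3.9%, 1.1% and 3.42% of its tested genes. Gata3, Cebpa and Klf4, which promote terminal differentiation, had the smallest p by imiquimod, with log2 fold changes of -0.91 ± 0.22, -0.51 ± 0.14 and -0.69 ± 0.22 (edgeR adjusted p = 0.0761, 0.104 and 0.141). By XYF the 3 smallest belonged to Grhl3, Ovol1 and Trp63, with 1.59 ± 0.44, 1.496 ± 0.466 and 0.93 ± 0.40 (edgeR adjusted p = 0.364, 0.364 and 0.417).

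Among 9 other genes of the complex, 7 were tested. By imiquimod 1 was called lower, where 0.348% of all tested genes were. By XYF none was called by edgeR. For IMQ+XYF against VAS+H2O 1 was called higher and 2 lower, where 0.695% and 0.508% of all tested genes were. Those called were genes of the hair follicle and a peptidoglycan recognition gene. Tchhl1, a relative of trichohyalin, stood at 1.92, 1.61 and 1.86 CPM in VAS+H2O and at 0 to 0.0689 CPM in the 6 other libraries, and was called lower in both comparisons with the control (edgeR adjusted p = 0.0314 and 0.0288). Tchh, trichohyalin of the inner root sheath, stood at 40.05, 91.0 and 161 CPM in VAS+H2O, at 5.65, 15.9 and 3.53 in IMQ+H2O and at 9.31, 3.90 and 4.59 in IMQ+XYF. It was called lower in IMQ+XYF against VAS+H2O, with a log2 fold change of -4.03 ± 0.72 (edgeR adjusted p = 0.0370), and had -3.54 ± 0.70 by imiquimod (edgeR adjusted p = 0.0515).

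Hair follicle markers were lower in the same libraries, and their part in the Padi3, Tchh and Tchhl1 results was not tested. The 6 hair shaft keratins measured summed to 16.5 to 69.5 CPM in VAS+H2O, 0 to 0.0585 in IMQ+H2O and 0 to 0.195 in IMQ+XYF, and all 6 were called lower against the control in both imiquimod groups. The 7 inner root sheath markers, of which Tchh is one, summed to 113 to 433, 5.25 to 38.5 and 4.96 to 13.8 CPM. Of these, Krt27 was called lower by imiquimod and Tchh, Krt27, Krt28 and Krt72 in IMQ+XYF against VAS+H2O by edgeR. VAS+H2O 3, the lowest library for 18 members, was the highest for both hair lists.

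Pglyrp3, a peptidoglycan recognition protein, was called higher only in IMQ+XYF against VAS+H2O. It stood at 1.04, 2.06 and 1.25 CPM in VAS+H2O, at 4.10, 4.44 and 2.98 in IMQ+H2O and at 11.8, 5.27 and 8.31 in IMQ+XYF. The 3 groups did not overlap, and the log2 fold change of IMQ+XYF against VAS+H2O was 2.55 ± 0.37 (edgeR adjusted p = 0.0221). It was 1.41 ± 0.36 by imiquimod (edgeR adjusted p = 0.0861) and 1.14 ± 0.35 by XYF (edgeR adjusted p = 0.364). Of the calls among these other genes of the complex, that by imiquimod was lost without any 1 of the VAS+H2O or IMQ+H2O libraries. The 3 calls against the control were all lost without VAS+H2O 2, VAS+H2O 3, IMQ+XYF 1 or IMQ+XYF 3, and 1 remained without VAS+H2O 1.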

How the data were processed

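The labels describe strand-specific TruSeq libraries of dermal RNA, 3 per group. Per the labels' processing notes and the study's methods, the authors aligned reads with STAR 2.5 to GRCm38. FastQC, Cuffnorm and DESeq 1.22.1 are also named there, and the methods name StringTie and DESeq2. The deposited values are whole-number read counts per Ensembl gene. The counting tool, the treatment of reads with several alignments, and the use of strand in counting are not given in the sources used here. Sheets of more than 1 animal supplied the RNA. Whether each library pooled animals, or libraries of a group shared animals, was unclear. The p-values therefore measure only the spread between these libraries, which may be technical.

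Counts were analysed with edgeR 4.0.16 in R 4.3.3. filterByExpr (10 counts at the median library size, or 0.206 CPM, in 3 libraries) left 22430 of 52550 genes. TMM factors scaled the libraries, and all 9 entered 1 quasi-likelihood fit (common biological coefficient of variation 0.296). Each standard error was derived from the fold change and its quasi-likelihood F statistic, as the ratio of the log2 value to the root of F. DESeq2 1.42.0 was an alternative. The fit was tested on simulated data for IMQ+H2O against VAS+H2O (21669 genes of at least 10 mean counts, all with the same spread). It called 49 of 50 genes raised 4-fold, 9 of 50 raised 2-fold and 41 of 50 lowered to 0.25 of their level, with 9 false calls. Many members spread more widely, so these shares do not carry over to them. Sprr1b, at a log2 fold change of 2.51 by imiquimod, was not called. Coordinates, exon lengths and shared windows of 50 or 100 bases came from GENCODE vM21, promoters from RefSeq, with Python 3.11.15.

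The members, lists and tests were chosen with earlier results of these data known. Members were named by rule: those called in any comparison and the 12 uncalled members with the highest CPM per kilobase in full, the others by range, and those not tested with their highest count. Of the pathway lists, called genes, or otherwise the 3 with the smallest p, were named. Marker lists covered basal and suprabasal keratinocytes, stress keratins, inner root sheath, hair shaft, sebaceous gland, fibroblast, cartilage, skeletal muscle and neutrophil.

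The alternatives were DESeq2, RLE factors, no filter, only the compared groups in the fit, a replicate block, each library left out, no limit on fold, family sums and CPM on total counts.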

Additional observations from a re-analysis of the deposited data

How the results depend on the processing

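Members called by imiquimod numbered 1 in the fit reported, 5 by DESeq2 (4 higher), and 0 with family sums. Members called by XYF numbered 4 by DESeq2 and 0 under every other alternative. For IMQ+XYF against VAS+H2O the 6 calls became 0 with only those groups in the fit and 1 with family sums, while DESeq2 called 9 (8 higher). In the same order of comparisons DESeq2 called 3.9%, 1.1% and 3.42% of its tested genes. RLE factors, no filter and no limit on fold left each of these counts at 1, 0 and 6. Leaving out 1 library at a time gave 0 to 3 members by imiquimod, 0 by XYF, and 0 to 9 for IMQ+XYF against VAS+H2O. Family sums replaced the single Sprr2, Lce1 and Lce3 genes, and the Sprr2 sum included the more abundant Sprr2a genes. The cause of these shifts was not tested.

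In the cornification list, DESeq2 called 3 genes by imiquimod, 8 by XYF and 6 for IMQ+XYF against VAS+H2O. Its shares over all tested genes were 3.9%, 1.1% and 3.42%. Fits of only the compared groups called 3 and 0, and leaving out a library gave 0 to 2 and 0 to 6. Among the regulators DESeq2 called 1 by XYF. Among the other genes of the complex, by imiquimod DESeq2 called 4, no filter 2 and the fit of the compared groups 2, with 0 to 3 on leaving out a library. For IMQ+XYF against VAS+H2O that fit called 0, and leaving out a library gave 0 to 4.

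The labels number the replicates 1 to 3 in each group. Same-numbered libraries did not deviate together (correlations of -0.183 to 0.125), so the numbers were not taken to pair the samples. With a replicate block, 0 members and 0 genes of the cornification list or the other genes of the complex were called in any comparison.

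Of the 63 fold changes of named members over the 3 comparisons, 15 changed sign, each only when a library was left out. By imiquimod this was without VAS+H2O 2, and over the libraries left out Lce1a2 ranged from -1.90 to 0.054, Lce1b from -1.75 to 0.063, Lce1c from -1.37 to 0.33, Lce1d from -1.81 to 0.095, and Sprr1a from -0.45 to 0.19 (log2 fold change). For IMQ+XYF against VAS+H2O the lowest values came without IMQ+XYF 1, except for Sprr4, and, for the Lce1 genes and Kprp, the highest without VAS+H2O 2. Lce1a1 ranged from -0.47 to 1.86, Lce1a2 from -0.51 to 2.34, Lce1b from -0.54 to 2.16, Lce1c from -0.50 to 1.97, Lce1d from -0.87 to 1.82, and Kprp from -0.67 to 0.96. Lor ranged from -0.92 to 0.83, Hrnr from -0.74 to 0.77 and Flg from -1.23 to 0.34, with the highest values without VAS+H2O 1. Lor, Kprp and Hrnr were also negative without VAS+H2O 3 (-0.097, -0.12 and -0.26). Sprr4 ranged from -0.080 without VAS+H2O 1 to 0.46 without IMQ+XYF 2, and was -0.076 without IMQ+XYF 1 and -0.00051 without IMQ+XYF 3. The summed level of the members moved by less than 1 SD under every alternative. Leaving out 1 of 3 libraries cannot move a group mean by that much, so it is no test of stability. In IMQ+XYF the sum ran from 294 to 1120 CPM over the libraries. Sprr2b and Sprr2f had no count in any control library, which leaves their folds against the control as bounds.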

Other observations

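The remaining marker lists give the makeup of the libraries. The 8 basal keratinocyte markers summed to 2429 to 4333 CPM in VAS+H2O, 1790 to 2651 in IMQ+H2O and 2366 to 7747 in IMQ+XYF. Lamb3, a chain of the laminin that anchors basal keratinocytes, was called lower by imiquimod, and it was the only called gene of that list. The 4 suprabasal keratins summed to 1612 to 5130 CPM, 1152 to 1918 and 2894 to 14437, with none called by edgeR. At an unadjusted p under 0.05, 3 of these 4 were higher by XYF.

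The 7 fibroblast markers summed to 15053 to 26002 CPM in VAS+H2O, 10748 to 17716 in IMQ+H2O and 10836 to 18129 in IMQ+XYF. The 6 cartilage markers, of which Matn1 had no count in any library, summed to 868 to 1604, 246 to 403 and 508 to 1550 CPM, and Col2a1 was called lower by imiquimod. The 4 skeletal muscle markers summed to 203 to 814, 424 to 842 and 51.4 to 268 CPM. The 7 sebaceous gland markers summed to 1285 to 1785, 1426 to 1684 and 986 to 1569 CPM, with 0 called by edgeR in any comparison and 1, 0 and 2 of them lower at an unadjusted p under 0.05 by imiquimod, by XYF and for IMQ+XYF against VAS+H2O.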
